A study of Homo sapiens with 4 samples.

Results

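The SRSF, HNRNP, SF3 and SNRP genes encode 4 families of splicing factors, and their transcript levels were compared between H358 cells given an shRNA against ADAR and H358 cells given a scrambled shRNA. Members were all probes of the array whose gene symbol in the platform annotation starts with SRSF, HNRNP, SF3A, SF3B or SNRP, with pseudogenes left out. This gave 102 probes of 57 genes, out of 30113 probes of 20046 genes with 1 symbol. The SRSF family had 12 genes, the HNRNP family 24, the SF3 family 9 and the SNRP family 12.

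Introns are removed by the spliceosome, which is built from small nuclear ribonucleoproteins (snRNPs). SNRP genes encode proteins that belong to U1 or U2 alone and the ring of Sm proteins around the RNA of snRNPs other than U6. The SF3A and SF3B complexes are parts of U2 that bind at the branch point. SR proteins (SRSF) bind exonic enhancers and recruit the splicing machinery, while HNRNP proteins coat nascent transcripts and often oppose SR proteins. ADAR edits double-stranded RNA by deaminating adenosines to inosines.

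H358 is an established human lung adenocarcinoma line. Total RNA was read on 4 one-colour Illumina BeadChips, 2 from cells transfected with ADAR shRNA and 2 from cells transfected with the scrambled shRNA. The series calls the replicates biological but does not say whether they were separate cultures, so the p-values measure the spread between these samples, which may be technical. The titles name 1 ADAR construct, and no other ADAR shRNA was analysed here.

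Levels below are normalized log2 intensities of the brightest detected probe of a gene, and differences subtract the scrambled from the ADAR shRNA mean, with limma's moderated standard error (SE) and n = 2 arrays per group. A gene is said to have risen or fallen where limma's test gave a Benjamini-Hochberg adjusted p under 0.05 over all 12197 genes tested. ADAR itself had levels of 9.88 and 10.19 in ADAR shRNA cells, against 10.89 and 11.23 in scrambled cells, a difference of -1.03 (SE 0.21, adjusted p = 0.00292). The groups did not overlap, and ADAR in ADAR shRNA cells was at 49.1% of its scrambled level. The ADAR probe next in brightness gave a difference of -0.19 that was not called (adjusted p = 0.557).

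Between 18722 and 19294 probes were detected on the ADAR shRNA arrays and between 20031 and 20901 on the scrambled arrays, and the upper quartile of raw signal was 92.1 to 94.5 in ADAR shRNA cells and 115.2 to 143 in scrambled cells. Across the 12197 genes, levels correlated at 0.987 within ADAR shRNA cells, at 0.984 within scrambled cells and at 0.765 to 0.795 between the groups. The groups therefore differed widely: 57.8% of genes were called, with 25.5% rising and 32.2% falling. Of 6 epithelial markers, 4 were detected on both ADAR shRNA arrays and 6 on both scrambled arrays. EPCAM and CDH1, which define epithelial cells, were not detected in ADAR shRNA cells, and the summed linear level of the 6 markers was 2553 to 2841 in ADAR shRNA cells and 20020 to 24180 in scrambled cells. The lung factor NKX2-1 was not detected in ADAR shRNA cells and was detected on both scrambled arrays, while the surfactant genes and NAPSA with a probe were not detected in either group. Of the haematopoietic markers with a probe, PTPRC and CD3E were not detected on any array, while CD68 was detected on all 4 and read 10.66 and 10.72 in ADAR shRNA cells, against 9.10 and 9.42 in scrambled cells, with a summed linear level of 1615 to 1689 against 543.4 to 682.4. The mesenchymal marker FN1 read 7.42 and 7.30 in ADAR shRNA cells, against 4.93 and 4.53 in scrambled cells. The other mesenchymal markers did not follow it. COL1A1 was detected on the scrambled arrays alone, at 5.45 and 5.75, and COL1A2 on 1 scrambled array alone. VIM overlapped, at 12.37 and 12.15 in ADAR shRNA cells, against 12.5 and 11.71 in scrambled cells. The sum of the 4 mesenchymal markers was 4690 to 5452 in ADAR shRNA cells, against 3385 to 5834. Of 3 endothelial markers CDH5 and VWF were not detected on any array and PECAM1 on the scrambled arrays alone. Both groups are labelled H358, but the absence of EPCAM, CDH1 and NKX2-1 in 1 group means that a difference in the identity or state of the cells cannot be told apart from the shRNA in any comparison below. The part of these marker differences in the results was not tested. In bulk RNA, fewer cells of a type and less RNA per cell cannot be told apart.

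Across the 4 families, transcripts of splicing factors were mostly lower in ADAR shRNA cells. Of the 57 genes, 53 passed the detection filter, and of these 35 fell (66%), 1 rose and 17 were not called, where 32.2% of all genes fell and 25.5% rose. The median difference was -0.85 over the 53 members and -0.08 over all genes. A total of 44 members (83%) had a negative difference, against 53.7% of all genes, and 19 (35.8%) fell at least 2-fold, against 18.3%. The ADAR shRNA and scrambled arrays did not overlap for 46 members (86.8%), near the 79.3% of all genes. Of these members 41 were lower in ADAR shRNA cells and 5 higher, against 43.3% lower and 36% higher of all genes. Before any normalization, the signal of 49 of the 53 members (92.5%) was lower without overlap, as was that of 66.3% of all genes. A filter passed by 1 group alone favours genes that differ, but 86 of the 89 tested member probes were detected on all 4 arrays. SF3A1, SNRPE, HNRNPCL1 and SRSF12 were not detected on any array and were not tested. The plot of all tested members shows every difference with its interval.

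**Figure D1:**
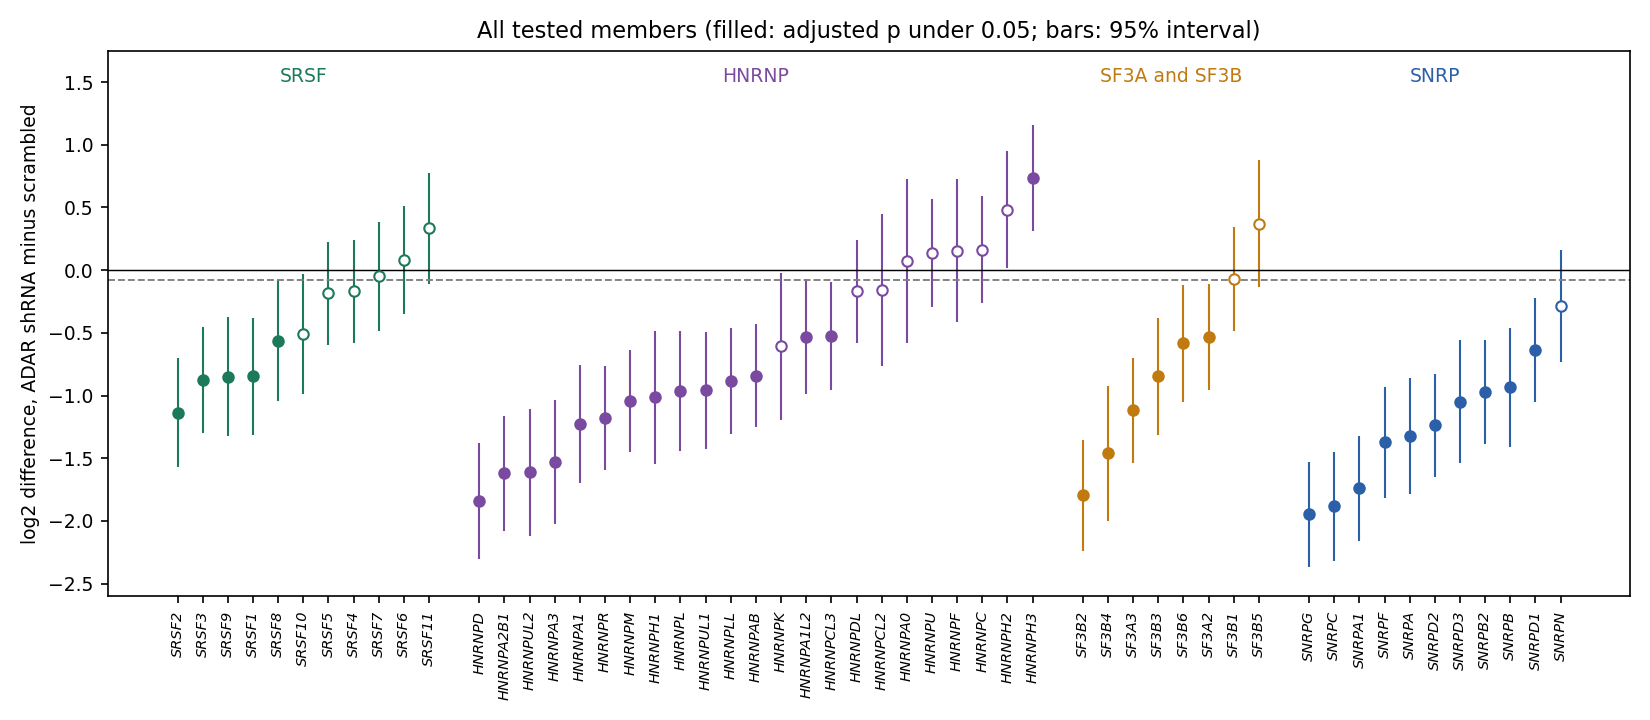
Log2 difference (ADAR shRNA minus scrambled) of each of the 53 tested members, by family, with 95% intervals from limma; filled points have an adjusted p under 0.05. Of the 36 called members, 35 lie below 0 and HNRNPH3 alone lies above it in this normalization.

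The number of members that fell depended on how the arrays were scaled. With median scaling in place of quantile normalization the median of all genes moved to -0.54, and the share of called genes that rose was 22.3% in place of 44.2%. With that scaling 45 members fell (84.9%) with 0 rising, where 49.4% of all genes fell in place of 32.2%. The members' median less that of all genes was -0.77 with quantile normalization and -0.72 with median scaling.

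The promoter window of each family's deepest fall and of the 1 member that rose is shown because the members moved together. Promoter windows of 300 bases (250 before to 50 after the start, RefSeq, GRCh38.p14) were matched for 52 of the 57 members. Each is the window listed first for its gene. Other starts of the gene were not examined, so a window need not lie upstream of its main start. SRSF2, the deepest fall among SRSF genes, is named only. The windows lie at chr4:82373942-82374241 on the minus strand (HNRNPD), chr11:66052114-66052413 on the plus strand (SF3B2), chr2:70293409-70293708 on the minus strand (SNRPG) and chr10:68331443-68331742 on the plus strand (HNRNPH3), and capitals mark matches to any of 7 short motifs on either strand.
HNRNPD: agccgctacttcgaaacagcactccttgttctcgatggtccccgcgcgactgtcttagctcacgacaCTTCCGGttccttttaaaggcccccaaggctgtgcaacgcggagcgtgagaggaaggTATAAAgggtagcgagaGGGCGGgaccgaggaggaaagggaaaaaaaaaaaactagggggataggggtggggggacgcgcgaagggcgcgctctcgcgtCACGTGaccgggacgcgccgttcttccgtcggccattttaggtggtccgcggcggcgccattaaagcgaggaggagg
SF3B2: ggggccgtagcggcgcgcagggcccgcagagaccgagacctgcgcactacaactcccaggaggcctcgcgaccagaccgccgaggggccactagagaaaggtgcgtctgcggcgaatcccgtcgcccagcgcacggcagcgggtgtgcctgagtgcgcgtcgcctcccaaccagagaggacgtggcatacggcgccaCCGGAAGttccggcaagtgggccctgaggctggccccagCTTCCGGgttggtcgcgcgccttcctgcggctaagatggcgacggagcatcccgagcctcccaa
SNRPG: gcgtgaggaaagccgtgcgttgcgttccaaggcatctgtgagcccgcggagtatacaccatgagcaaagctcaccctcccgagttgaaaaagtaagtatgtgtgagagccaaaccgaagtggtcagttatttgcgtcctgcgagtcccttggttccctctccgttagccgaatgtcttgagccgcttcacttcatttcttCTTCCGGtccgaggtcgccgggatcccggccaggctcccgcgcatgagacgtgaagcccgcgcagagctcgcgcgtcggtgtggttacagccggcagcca
HNRNPH3: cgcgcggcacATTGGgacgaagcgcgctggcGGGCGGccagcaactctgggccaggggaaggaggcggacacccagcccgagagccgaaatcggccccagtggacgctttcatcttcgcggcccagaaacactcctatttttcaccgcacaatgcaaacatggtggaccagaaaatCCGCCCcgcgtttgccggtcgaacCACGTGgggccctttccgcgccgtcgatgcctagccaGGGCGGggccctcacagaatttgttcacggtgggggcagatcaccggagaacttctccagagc

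The motifs were picked after the results were known and none contains another, so their counts are a description without a test. Each matched member has 1 window, whereas the 35116 promoters of the table are not limited to genes tested here. The shares of all promoters are thus not a matched background. The ETS letters CCGGAAG were found in 13 of 30 matched members that fell (43.3%), in 3 of 17 not called (17.6%) and in 10.3% of the 35116 promoters of the table. SF3B2 held 2 ETS matches, HNRNPD and SNRPG 1 each and HNRNPH3 none. In the SNRPG window an ATG with an open reading frame precedes the match, so that match may lie inside the gene. The E-box, E2F and GC box letters had the opposite order between members that fell and those not called. The E-box letters CACGTG were in 13.3% of members that fell and 17.6% of those not called, and in 15.4% of the 52 matched members against 7.26% of all promoters. The E2F letters GCGGGAA were in 16.7% that fell and 23.5% not called, and in 21.2% of members against 6.55% of all promoters. For the GC box, GGGCGG, the shares were 56.7% that fell and 76.5% not called, and 63.5% of members against 45% of all promoters. CCAAT was in 43.3% that fell and 41.2% not called, and in 42.3% of members against 34.6% of all promoters. For TATAAA the shares were 13.3% that fell, 11.8% not called and 11.5% of both members and all promoters, and those for the CRE letters TGACGTC were 3.33% that fell, 0% not called, 1.92% of members and 3.45% of all promoters.

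The SNRP family had the highest share of falls, 10 of 11 tested genes (90.9%), with a median of -1.24. Both proteins found only in U1 fell, both found only in U2 fell, and 6 of 7 tested Sm ring genes fell. SNRPG, a subunit of the Sm ring, had levels of 11.74 and 11.71 in ADAR shRNA cells, against 13.58 and 13.77 in scrambled cells, a difference of -1.95 (SE 0.19, adjusted p = 3.11e-05). This was the deepest fall of all 53 members, and the ADAR shRNA arrays were at 25.9% of the scrambled level. The U1 zinc-finger protein SNRPC had 9.10 and 9.02 in ADAR shRNA cells, against 10.81 and 11.09 in scrambled cells, a difference of -1.89 (SE 0.19, adjusted p = 4.82e-05). SNRPA1, which is the U2 A' protein, had 10.06 and 9.97 in ADAR shRNA cells, against 11.68 and 11.83 in scrambled cells, a difference of -1.74 (SE 0.18, adjusted p = 5.84e-05). For both genes the 2 arrays of a group lay close together and the groups were far apart. The Sm ring gene SNRPF had 11.17 and 10.92 in ADAR shRNA cells, against 12.32 and 12.51 in scrambled cells, a difference of -1.37 (SE 0.19, adjusted p = 0.000342). Its other probe fell as well, at -1.25.

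The remaining SNRP falls had differences of -1.33 for SNRPA (the U1 A protein), -1.24 for SNRPD2, -1.05 for SNRPD3, -0.97 for SNRPB2 (the U2 B'' protein), -0.94 for SNRPB and -0.63 for SNRPD1. The last of these depended on 2 arrays: SNRPD1 was at -0.56 without ADAR shRNA replicate 2 and at -0.62 without scrambled replicate 2, and was then not called. SNRPN, an imprinted gene whose Sm protein closely resembles SNRPB, was the exception, with a difference of -0.29 (adjusted p = 0.244) at its brightest probe. Such near-identical genes share sequence, so the probes of SNRPN and SNRPB, and of SNRPG and its pseudogenes, may not be fully specific.

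**Figure D2:**
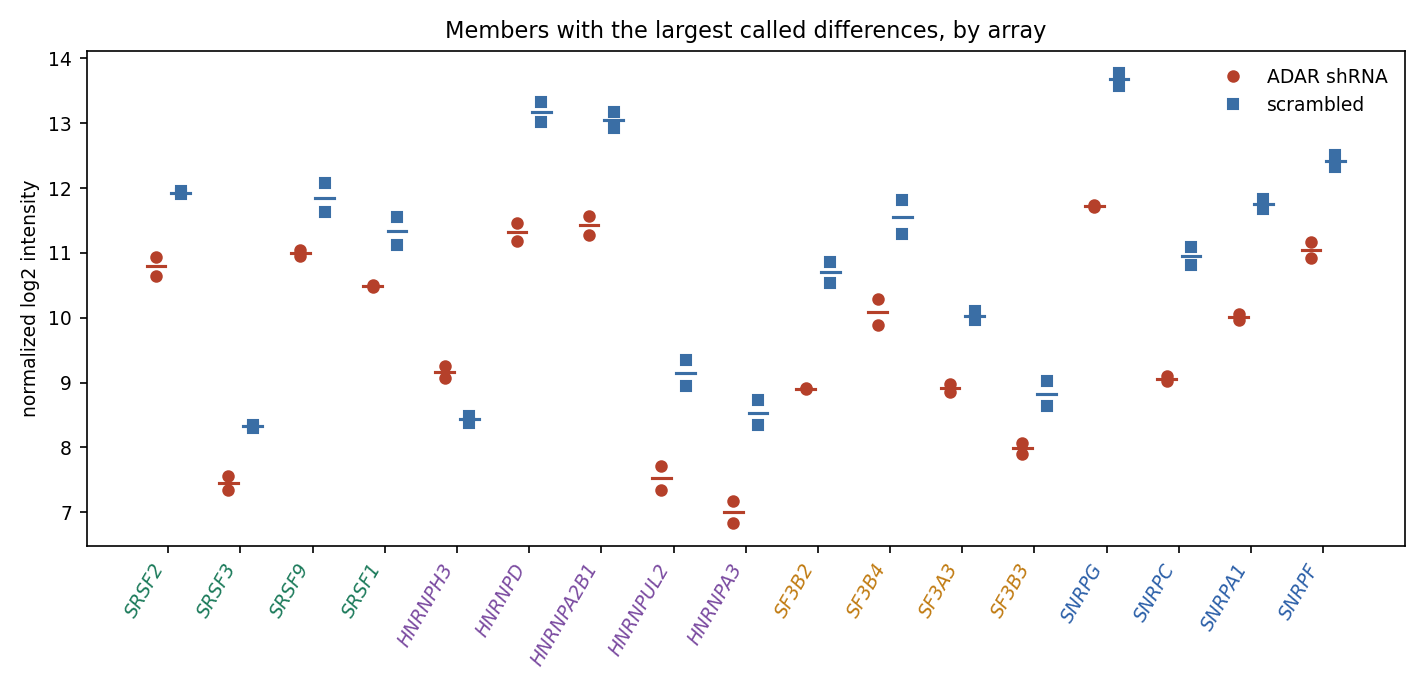
Normalized log2 intensity on each array of the members with the largest called differences in each family, ADAR shRNA arrays to the left of scrambled arrays and a line at each mean. SNRPG reads 11.74 and 11.71 in ADAR shRNA cells and 13.58 and 13.77 in scrambled cells, and HNRNPH3, at 9.26 and 9.07 against 8.38 and 8.48, has the opposite order, a difference that median scaling takes to 0.03.

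In the SF3 family 6 of 8 tested genes fell (75%), 0 rose and the median was -0.71. SF3B2, a branch-point-binding subunit of SF3B, had levels of 8.91 and 8.90 in ADAR shRNA cells, against 10.54 and 10.86 in scrambled cells, a difference of -1.80 (SE 0.19, adjusted p = 6.72e-05). Its partner SF3B4 had 9.89 and 10.29 in ADAR shRNA cells, against 11.29 and 11.82 in scrambled cells, a difference of -1.46 (SE 0.24, adjusted p = 0.000777). Both genes were lower on each ADAR shRNA array than on either scrambled array. SF3A3, a subunit of the SF3A trimer, had 8.85 and 8.97 in ADAR shRNA cells, against 9.96 and 10.10 in scrambled cells, a difference of -1.12 (SE 0.18, adjusted p = 0.000838). The SF3B subunit SF3B3 had 7.90 and 8.07 in ADAR shRNA cells, against 8.64 and 9.02 in scrambled cells, a difference of -0.85 (SE 0.21, adjusted p = 0.00679). SF3B6, which touches the branch point adenosine, differed by -0.58 (adjusted p = 0.0366) and SF3A2 by -0.53 (adjusted p = 0.0359). Leaving out 1 array ended both calls for 3 of the 4 arrays each, with values of -0.39 to -0.67 for SF3B6 and -0.44 to -0.59 for SF3A2. The SF3B6 call was also lost with the authors' processed values and with no filter on detection. SF3B1, the largest SF3B subunit and a frequent site of mutation in cancer, was the least changed member of the family, at -0.07 (adjusted p = 0.762). SF3B5 was at 0.37 (adjusted p = 0.185), and at 0.64 and called without scrambled replicate 1.

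The HNRNP family had 14 of 23 tested genes falling (60.9%), 1 rising, 8 not called and a median of -0.84. With the mean of all detected probes in place of the brightest, 10 fell, 4 rose and the median was -0.39, and over the 48 tested HNRNP probes 20 fell, 8 rose and the median was -0.33. HNRNPD, also called AUF1, which binds AU-rich elements, had levels of 11.19 and 11.46 in ADAR shRNA cells, against 13.02 and 13.32 in scrambled cells, a difference of -1.84 (SE 0.20, adjusted p = 7.51e-05). Its other probe read -2.03, so both HNRNPD probes fell. HNRNPUL2, a relative of the nuclear scaffold protein HNRNPU, had 7.35 and 7.71 in ADAR shRNA cells, against 8.94 and 9.35 in scrambled cells, a difference of -1.61 (SE 0.22, adjusted p = 0.00029). HNRNPA3, of the A/B type, had 6.83 and 7.18 in ADAR shRNA cells, against 8.73 and 8.34 in scrambled cells, a difference of -1.53 (SE 0.22, adjusted p = 0.000361). The groups did not overlap for any of the 3 genes. HNRNPA2B1 is counted among the falls by its brightest probe (-1.62), although its other 3 probes rose, as described with the probes below. The other falls were HNRNPA1 (-1.23), which represses exons through silencers, HNRNPR (-1.18), HNRNPM (-1.05), HNRNPH1 (-1.01), HNRNPL (-0.96), which binds CA repeats, HNRNPUL1 (-0.96), HNRNPLL (-0.89), HNRNPAB (-0.84), HNRNPA1L2 (-0.53) and HNRNPCL3 (-0.53).

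HNRNPH3, of the H and F group that binds runs of G, was the single rise, with 9.26 and 9.07 in ADAR shRNA cells, against 8.38 and 8.48 in scrambled cells, a difference of 0.73 (SE 0.19, adjusted p = 0.00864). Its other tested probe read 0.59, and -0.11 with median scaling. Its raw signal did not follow: 498.1 and 428.7 in ADAR shRNA cells, against 543.7 and 455.5 in scrambled cells. Without any normalization between arrays the difference was -0.10, with median scaling it was 0.03, and without ADAR shRNA replicate 1 it was 0.64 and no longer called. Among the H and F genes the 4 did not move as a block: HNRNPH1 fell, and HNRNPH2 at 0.48 (adjusted p = 0.0721) and HNRNPF at 0.16 were not called. Without scrambled replicate 1 HNRNPH2 was at 0.67 and called. HNRNPA1L2 and HNRNPCL3 were near the threshold, and leaving out 1 array ended each call for 3 of the 4 arrays, with values of -0.37 to -0.65 and -0.40 to -0.58. The call of HNRNPA1L2 was lost in 10 of 15 alternatives and that of HNRNPCL3 in 6 of 16. Without background correction they were at -0.30 and -0.35. HNRNPK, which binds C-rich RNA, was at -0.61 and not called (adjusted p = 0.0721), and reached -0.98 without scrambled replicate 2. HNRNPC (0.16), HNRNPU (0.14), HNRNPA0 (0.07, the smallest in the family), HNRNPCL2 (-0.16, detected on 1 of the 2 ADAR shRNA arrays) and HNRNPDL (-0.17) were not called. HNRNPA1 and HNRNPA1L2, the HNRNPC-like genes, and HNRNPH1 and HNRNPH2 have near-identical copies, so their probes may read more than 1 gene.

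In the SRSF family 5 of 11 tested genes fell (45.5%), 0 rose and the median was -0.51. All genes fell in 32.2%, and 45.5% of the SRSF genes were called in either direction, against 57.8% of all genes. With median scaling 9 fell and the median was -1.10, where 49.4% of all genes fell with a median of -0.54. Without scrambled replicate 1 the SRSF median was -0.31. SRSF2, an SR protein known as SC35, had levels of 10.65 and 10.93 in ADAR shRNA cells, against 11.90 and 11.96 in scrambled cells, a difference of -1.14 (SE 0.19, adjusted p = 0.000948). SRSF3, the smallest SR protein, had 7.56 and 7.34 in ADAR shRNA cells, against 8.35 and 8.30 in scrambled cells, a difference of -0.88 (SE 0.19, adjusted p = 0.00351). For both genes the groups did not overlap. SRSF9 had 11.05 and 10.95 in ADAR shRNA cells, against 12.07 and 11.63 in scrambled cells, a difference of -0.85 (SE 0.21, adjusted p = 0.00733). SRSF1, the SR protein first known as ASF/SF2, had 10.5 and 10.47 in ADAR shRNA cells, against 11.12 and 11.55 in scrambled cells, a difference of -0.85 (SE 0.21, adjusted p = 0.00691). Both were lower on each ADAR shRNA array. SRSF8 was at -0.56 (adjusted p = 0.047), a call lost without any 1 of ADAR shRNA replicates 1 and 2 and scrambled replicate 1, at -0.33 to -0.60. The SRSF8 call was also lost with cyclic loess, with the authors' processed values and with no filter on detection. The 6 that were not called spanned from -0.51 for SRSF10 (adjusted p = 0.0656), which was at -0.71 and called without scrambled replicate 2, to 0.33 for SRSF11. SRSF7 was the least changed, at -0.05 with a 95% interval of -0.48 to 0.39. Of the 5 SRSF genes with a pair of RNA recognition motifs 2 fell, and of the 6 tested with a single one 3 fell.

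Probes of 1 gene did not always agree, and HNRNPA2B1, an A/B type protein and a reader of RNA modifications, was the one member whose probes were called in opposite directions. Over 89 tested member probes 43 fell, 10 rose and 36 were not called (59.6% called), against 50.6% of all 21263 probes, with 24.2% rising and 26.3% falling. The brightest HNRNPA2B1 probe had levels of 11.28 and 11.57 in ADAR shRNA cells, against 12.93 and 13.17 in scrambled cells, a difference of -1.62 (adjusted p = 0.000452). The other 3 probes were higher in ADAR shRNA cells without overlap. They read 10.14 and 10.38 against 9.26 and 9.46 (0.90), 9.12 and 9.33 against 8.03 and 7.99 (1.22), and 8.79 and 9.05 against 7.36 and 7.25 (1.61), ADAR shRNA before scrambled in each. With median scaling these differences were 0.26, 0.54 and 0.95, against -1.84 at the brightest probe, so the sign of each held while 2 of the 3 calls were lost. The 0.90 probe was also not called without ADAR shRNA replicate 2 (0.77). The 4 probes point to 3 transcript records of the gene, but the brightest probe and the 0.90 probe share the same record. The records therefore do not separate the directions. The mean of all 4 probes gave 0.53 for the gene in place of -1.62.

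**Figure D3:**
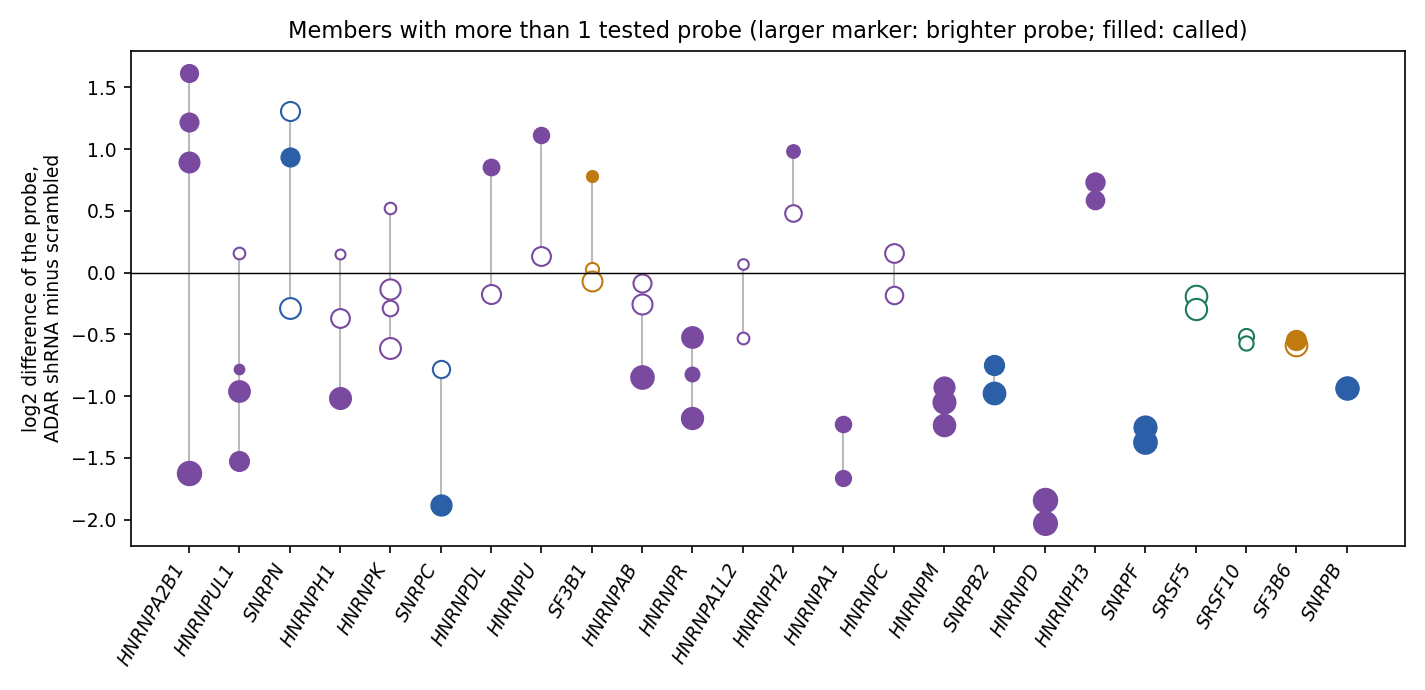
Log2 difference (ADAR shRNA minus scrambled) of each tested probe of the 24 members with more than 1 tested probe; larger markers are brighter probes and filled markers were called. The HNRNPA2B1 probes run from -1.62 at the brightest to 1.61, positive for 3 of 4 with median scaling too.

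Of the 24 members with more than 1 tested probe, 13 had the same call at every probe, 9 had probes of both signs and 11 had differing calls. A dimmer HNRNPU probe rose at 1.12 (adjusted p = 0.00472) while its brightest read 0.14. With median scaling the 2 probes read 0.52 and -0.58, and the dimmer was not called. Likewise dimmer probes of HNRNPH2 (0.99), HNRNPDL (0.85) and SF3B1 (0.78) rose where the brightest was not called. Each of these 3 calls was lost without ADAR shRNA replicate 2, at 0.70, 0.38 and 0.67. With median scaling the HNRNPH2 and HNRNPDL probes were at 0.56 and 0.24 and not called, and the SF3B1 probe was at 0.55 and called. That of HNRNPDL was also lost without scrambled replicate 1 (0.81) or 2 (0.90), and that of HNRNPH2 without scrambled replicate 2 (0.89). For SNRPN 2 dimmer probes were at 1.30 (adjusted p = 0.0538) and 0.94 (adjusted p = 0.0423), where the scrambled arrays differed from each other, at 9.47 and 7.72 and at 8.68 and 7.70. These values were 2.18 and 1.43 without scrambled replicate 1, and 0.43 and 0.45 without scrambled replicate 2. Of the HNRNPUL1 probes 3 fell (-1.53, -0.96 and -0.78) and its last read 0.16. The -0.78 probe, counted among the 43 falling probes, was not detected on either ADAR shRNA array. It passed the filter through the scrambled arrays alone, so its ADAR shRNA level is a background reading. HNRNPH1 probes read -1.01, which fell, -0.37 and 0.15, and HNRNPAB probes -0.84, which fell, -0.25 and -0.09. The 4 HNRNPK probes read -0.61 to 0.52 with none called, and the dimmer SNRPC probe read -0.78 and was not called (adjusted p = 0.067).

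The members' probes were bright, and falls were also counted within quartiles of all genes by mean level, a split added after the values were seen. Of 36 members in the brightest quartile 23 fell (63.9%) and 1 rose, against 33% falling and 25.5% rising of all 3049 genes there (58.5% called), with medians of -0.89 and -0.11. In the third quartile 8 of 10 members fell (80%), against 31.8% of all genes. Only 7 members lay in the dimmer quartiles, where 3 of 5 and 1 of 2 fell. Within the brightest quartile 7 of 8 SNRP, 5 of 7 SF3, 8 of 14 HNRNP and 3 of 7 SRSF genes fell. Their medians there were -1.31, -0.58, -0.90 and -0.19, so that of the SRSF genes lay near the -0.11 of all genes. A probe's brightness is not a transcript abundance, and brighter members tended to have the more negative differences. Spearman's rho between the level in scrambled cells and the difference was -0.54 over the 53 members and -0.31 over all 12197 genes, given as a description, since the scrambled level enters both quantities and the genes share the same 4 arrays.

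**Figure D4:**
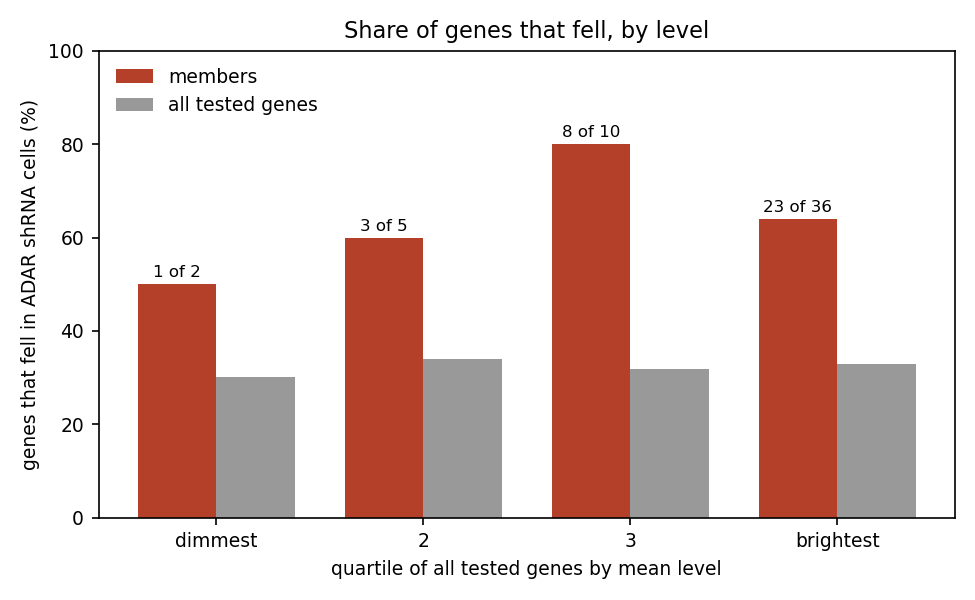
Percent of tested genes that fell in ADAR shRNA cells, for members beside all genes, by quartile of all genes by mean level. The share is 63.9% of 36 members and 33% of all genes in the brightest quartile, and the dimmer quartiles hold 2 and 5 members.

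Other genes of the splicing machinery were followed in 7 lists of 132 genes, 121 of them tested. Of these 63 fell (52.1%) and 10 rose, with a median of -0.59. The rises depended on scaling: 5 rose with median scaling and 4 without normalization between arrays. Over all genes, rises went from 3116 to 1730 and 1375 in these settings. All 7 lists had negative medians, and the LSM proteins, Sm-like proteins that form the ring of U6, with LSM1 of the ring for mRNA decay and LSM10 and LSM11 of U7 also in the list, had the lowest at -0.92, with 7 of 10 falling and 0 rising. Among U1, U2 and branch point factors 8 of 16 fell and 3 rose. SF1, which first marks the branch point, rose by 1.72, and PUF60 had the deepest fall, at -2.10. In the tri-snRNP list 6 of 15 fell (40%) and 2 rose, near the 32.2% of all genes that fell, and the extremes were SNRNP40 (-1.57) and SNRNP200 (0.78). Of 23 PRPF19 complex and catalytic factors 12 fell and 0 rose, led by CDC5L (-2.13). Of 27 other regulators 19 fell and 2 rose. ELAVL1, an AU-rich element binder, rose by 0.85. Its signal was dim, at 92.49 and 91.95 in ADAR shRNA cells before normalization, against 83.37 and 82.63 in scrambled cells. The MBNL3 probe read 4.44 and 4.34 in ADAR shRNA cells, below the lowest detected probe of each array (4.94 and 4.89). It passed the filter through the scrambled arrays alone, so its ADAR shRNA level is a background reading. Detection on 1 of the 2 ADAR shRNA arrays came from its other probes. Measured against those lowest detected probes, MBNL3 was at least 2.85-fold lower.

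The list of SR protein kinases and coactivators had the median nearest to 0, at -0.14, with 5 of 14 falling (35.7%, near the 32.2% of all genes) and 2 rising. CLK1, a kinase that phosphorylates SR proteins, had levels of 10.15 and 10.09 in ADAR shRNA cells, against 8.28 and 8.16 in scrambled cells, a difference of 1.90 (adjusted p = 3.31e-05). SRPK1, the other main SR protein kinase, had 8.58 and 8.66 in ADAR shRNA cells, against 9.80 and 9.74 in scrambled cells, a difference of -1.15 (adjusted p = 0.000638). The 2 kinases moved in opposite directions. Of 16 snRNP assembly genes 6 fell (37.5%) and 1 rose, with 43.8% called against 57.8% of all genes. DDX20, 1 of the 6 and of the 63 falls over the 7 lists, was not detected on either ADAR shRNA array. It passed the filter through the scrambled arrays alone, so its ADAR shRNA level is a background reading. GEMIN8 rose at 1.12, and TGS1, which caps snRNAs with trimethylguanosine and was detected on 1 of the 2 ADAR shRNA arrays, was at least 5.67-fold lower. LSM6 fell by 1.63. No comparison between lists was tested.

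**Figure D5:**
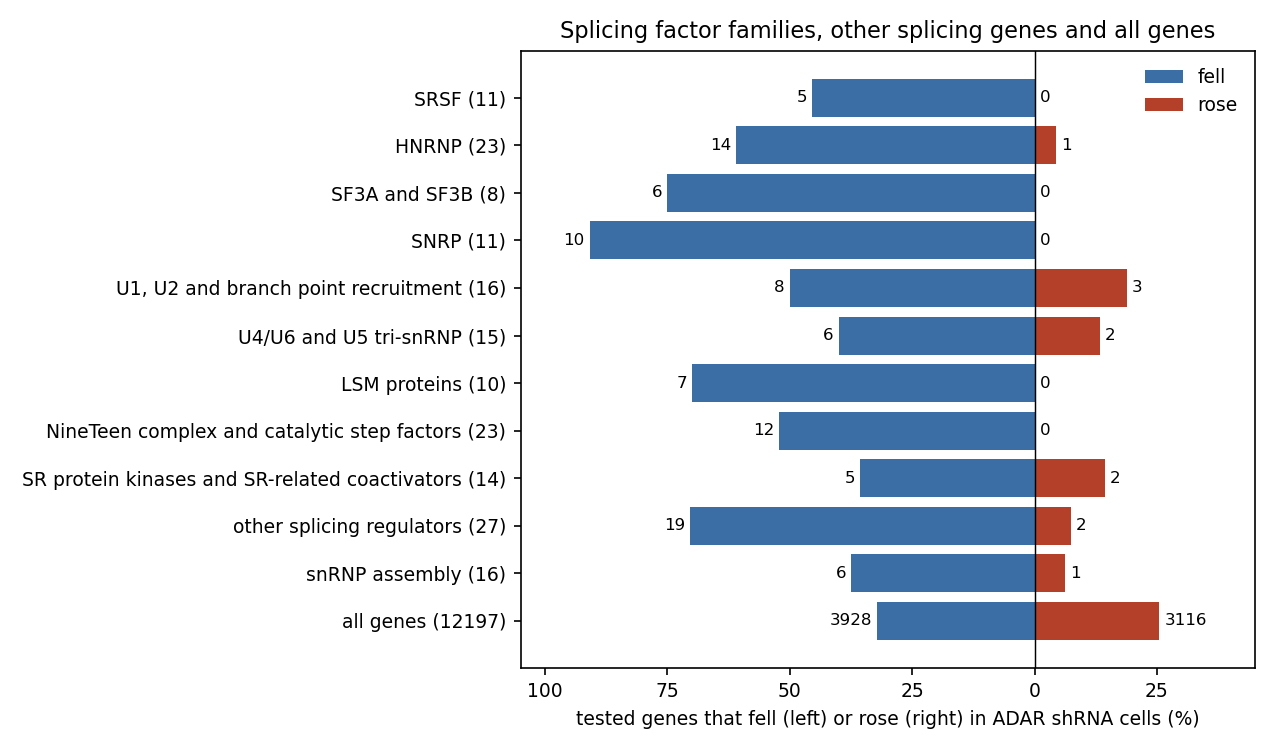
Percent of tested genes that fell (left) or rose (right) in ADAR shRNA cells at adjusted p under 0.05, for the 4 families, the 7 other splicing lists and all genes, with the number of genes at each bar. All genes fell in 32.2% and rose in 25.5%, the families fell in 45.5% to 90.9% in this normalization.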

How the data were processed

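A total of 4 arrays were analysed, 2 of H358 cells given ADAR shRNA and 2 given scrambled shRNA, grouped from the labels. The deposited table held, per the file headers, a mean signal intensity, bead standard error, bead number and detection p-value for each of 47322 probes, and GenomeStudio (version not given in the sources used here) made it, per the submitters' processing notes. The authors also deposited processed intensity values on a linear scale whose normalization is not given in the sources used here. They ranked the probes of each array as the raw signal did, had medians of 8.02 to 8.05 and served as an alternative. Every per-sample column was mapped to a sample, with 0 left over. Detection p-values measure whether a probe's signal stands above background and not its precision, and each member probe was read from 9 to 37 beads. No count depth applies to arrays, so the 2 arrays per group limit the precision.

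Intensities were background corrected with limma 3.58.1 (normexp, background from the detection p-values, offset 16) in R 4.3.3, put on the log2 scale and quantile normalized. An earlier run normalized before taking log2. The order used is that of limma for raw expression lists, it was adopted after the counts of both had been seen, and the other order is listed in the closing section as an alternative chosen after seeing the data. Probes with a detection p under 0.05 on at least 2 of 4 arrays were kept, and the brightest probe stood for each gene. The 2 groups were tested in limma (lmFit, eBayes, 2-sided; 2 residual and 6.83 prior degrees of freedom), with Benjamini-Hochberg adjustment over 12197 genes, and again over 21263 probes. At least-fold values compare the brighter group's mean with, per dim array, the higher of the lowest detected probe and the gene's own value. The limma fit alone was tested on data simulated on the normalized log2 scale. Background correction, normalization, the detection filter and the choice of probe were not covered by that simulation.

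The members and lists were chosen with earlier results of these data known. Named genes were ADAR, up to 4 rises and 4 falls per family past the threshold without overlap of groups, the smallest difference per family, members whose probes differ, and each list's largest rise and fall. The promoter motifs, the roles used to group members and the quartiles of level were added after results were seen. Gene symbols came from the platform annotation, which did not list 17201 probes. Protein features were planned but not computed, as no protein sequences were used here.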

Additional observations from a re-analysis of the deposited data

How the results depend on the processing

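Only 2 arrays per group were available, so a lone array left by omitting its replicate was assumed to vary like the others, and dim probes carry the widest error. Of the 36 called members, 26 kept their call in every alternative and 10 lost it in at least 1, of which 2, HNRNPH3 and HNRNPA2B1, changed sign. HNRNPA1L2 lost its call in 10 of 15 alternatives, among them cyclic loess and the authors' processed values, and HNRNPCL3 in 6 of 16, among them an offset of 50 and robust variance. A list median counts as moved when it shifts by more than the SD of the replicate arrays' own medians (0.04 over all members). A wider criterion, the median SD of single genes between replicates (0.16), was tried after many medians had been seen to move and was dropped. Quantile normalization before log2, added after seeing the data, gave 35 falls and 1 rise among members and 3914 falls and 3107 rises among all genes.

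Under median scaling and then without normalization between arrays, all genes had 1730 and 1375 rises, 6029 and 6426 falls and medians of -0.54 and -0.68, and the share of called genes that rose was 22.3% and 17.6%. Members had 0 rises in both, medians of -1.26 and -1.40, SRSF medians of -1.10 and -1.23 with 9 falls in both, HNRNP medians of -1.21 and -1.34 with 0 rises, SF3 medians of -1.40 and -1.53, and SNRP medians of -1.56 and -1.69. The 7 other lists had 5 and 4 rises, medians of -1.11 and -1.24, and 95 falls with no normalization. Signs turned for SRSF11 (-0.22 and -0.36), SRSF6 (-0.40 and -0.54), HNRNPF (-0.27 and -0.40), HNRNPC (-0.56 and -0.69), HNRNPU (-0.58 and -0.71), HNRNPA0 (-0.63 and -0.76), HNRNPH2 (-0.19 and -0.32) and SF3B5 (-0.32 and -0.46), and for HNRNPH3 with no normalization (-0.10). The cause was not tested.

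No background correction gave 2 member rises, both in HNRNP, and medians of -0.75 for members, -0.40 for SRSF, -0.67 for SF3 and -0.49 for the 7 lists. An offset of 50 gave -0.77, -0.40, -0.67 and -0.48 for these. Cyclic loess gave an SNRP median of -1.03. Detection p under 0.01 on all 4 arrays, which tests fewer genes, gave 2533 falls and a median of -0.032 over all genes and -0.51 for the 7 lists. No filter gave -0.0027 over all genes, -0.35 for SRSF, -0.58 for SF3 and -0.53 for the 7 lists. The mean of all detected probes gave 4 member rises, all in HNRNP, medians of -0.63 for members, -0.39 for HNRNP, -0.71 for SF3 and -0.50 for the 7 lists, and turned HNRNPA2B1 (0.53), HNRNPDL (0.34), SNRPN (0.65), SF3B1 (0.25) and HNRNPC (-0.0075).

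The replicate numbers are only shared labels (correlation of deviations 0.11, 2 pairs). The replicate block gave 37 falls and 2 rises among members, both rises in HNRNP.

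Leaving out 1 array gave all-gene medians of -0.12 to -0.060, member rises of 0 to 3 and medians of -0.86 to -0.76, SRSF medians of -0.63 to -0.31, HNRNP rises of 0 to 2, SF3 rises of 0 to 1 and medians of -0.83 to -0.66, and medians of -0.61 to -0.49 for the 7 lists. It turned the sign of HNRNPF (-0.16 to 0.47, at -0.038 without scrambled replicate 1), SRSF6 (-0.041 to 0.20), HNRNPA0 (-0.38 without scrambled replicate 2 and -0.048 without ADAR shRNA replicate 2), SRSF7 (-0.18 to 0.086) and HNRNPCL2 (-0.57 to 0.26), none of them called.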
